A study of Mus musculus with 12 samples.

Results

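The genes described here are 10 mediators of inflammation and their feedback inhibitors: the interleukin genes Il1a, Il1b, Il6, Il10 and Il18, the interleukin-1 receptor antagonist Il1rn, Tnf, the interleukin-6 family cytokine Lif, and the NF-kB inhibitors Nfkbia and Tnfaip3. Every probe set that the platform annotation ties to a single one of these symbols was taken, which gave 18 probe sets of 45037 on the array, for 10 of the 18193 genes named by a single symbol. They were read in 6 cultures of bone marrow mesenchymal stem/stromal cells (MSCs) with hematopoietic stem/progenitor cells (HSCs), labelled Assay and called co-culture here, and in 6 cultures of MSCs alone, labelled Cont and called control. Wells of both groups held 3000 MSCs, with 7000 HSCs in the co-culture group and 0 in the control group, and RNA was taken on day 6. The labels give C57BL/6 male mice, 6 weeks old, for all samples, and for its co-cultures the study took MSCs from EGFP-expressing mice. The sort for MSCs asked for Sca-1 and PDGFR-α on the surface and left out cells with CD45, which leukocytes carry, CD31 or TER119, and that for HSCs for c-Kit and Sca-1 without lineage markers. A further sort before RNA extraction is not described, nor whether the arrayed co-cultures were direct or through an insert. Whether co-culture RNA came from MSCs alone is therefore not known. Which cultures shared a mouse is not given either, so p-values measure the spread between these 12 samples, which may be technical.

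Interleukin-1α and interleukin-1β act through the same receptor, which Il1rn blocks, and interleukin-18, a relative, is released after cleavage by caspase-1. TNF and interleukin-1 switch on the transcription factor NF-kB, which induces further cytokine genes together with its own brakes, the IkBα protein (Nfkbia) that holds NF-kB in the cytoplasm and the ubiquitin-editing enzyme A20 (Tnfaip3). Interleukin-6 and LIF signal through gp130 and STAT3 and are made by bone marrow stroma, while interleukin-1β, TNF and interleukin-10, which damps macrophages, are products of macrophages among other cells.

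The proximal promoters of 6 of the genes are shown. Those of Il1a, Il6, Il1b and Il18 were taken because Il1a co-varied with each of the others over the 12 arrays. That co-variation passed adjustment in the main setting but not within sets of arrays or in some other settings, as given below. Nfkbia and Tnfaip3 were taken because each answers NF-kB itself. The RefSeq table used here, on GRCm38.p6, held promoters for 9 of the 10 genes, in 12 windows of 250 bases before and 50 bases after a transcript start, and that of Il10 is not shown. The 12 windows and all 32851 windows of the same length were searched on both strands for the kappa-B consensus of 10 bases that NF-kB binds, for the AP-1 motif TGANTCA and for the TATA box as TATAAA. No base of these windows lay in more than 1 match. In the sequences below, each written 5′ to 3′ along the gene, capitals mark these matches. The windows are chr2:129309923-129310222 for Il1a (minus strand), chr5:30012864-30013163 for Il6 (plus), chr2:129371090-129371389 for Il1b (minus), chr9:50554450-50554749 for Il18 (plus), chr12:55492598-55492897 for Nfkbia (minus) and chr10:19015361-19015660 for Tnfaip3 (minus).
Il1a: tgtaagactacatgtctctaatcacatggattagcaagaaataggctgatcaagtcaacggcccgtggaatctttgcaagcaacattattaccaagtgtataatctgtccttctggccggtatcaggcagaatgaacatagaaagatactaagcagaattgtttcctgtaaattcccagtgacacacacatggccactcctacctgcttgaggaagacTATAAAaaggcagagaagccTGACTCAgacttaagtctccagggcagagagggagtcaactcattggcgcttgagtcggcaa
Il6: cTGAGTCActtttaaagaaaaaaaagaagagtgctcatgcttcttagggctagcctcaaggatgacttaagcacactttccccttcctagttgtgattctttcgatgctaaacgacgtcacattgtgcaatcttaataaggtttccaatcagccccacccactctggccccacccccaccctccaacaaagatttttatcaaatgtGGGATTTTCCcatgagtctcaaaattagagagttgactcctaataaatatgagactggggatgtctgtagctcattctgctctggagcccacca
Il1b: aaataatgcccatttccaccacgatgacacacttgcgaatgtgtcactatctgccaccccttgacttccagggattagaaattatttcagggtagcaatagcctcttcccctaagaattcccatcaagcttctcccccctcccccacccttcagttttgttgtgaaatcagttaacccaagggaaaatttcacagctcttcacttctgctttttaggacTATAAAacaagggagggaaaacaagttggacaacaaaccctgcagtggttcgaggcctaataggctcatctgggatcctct
Il18: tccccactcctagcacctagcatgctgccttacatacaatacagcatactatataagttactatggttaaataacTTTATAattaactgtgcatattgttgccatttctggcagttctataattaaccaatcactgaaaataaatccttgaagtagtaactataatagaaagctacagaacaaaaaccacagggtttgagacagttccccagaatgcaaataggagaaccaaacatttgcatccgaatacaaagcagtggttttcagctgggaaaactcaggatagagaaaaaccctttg
Nfkbia: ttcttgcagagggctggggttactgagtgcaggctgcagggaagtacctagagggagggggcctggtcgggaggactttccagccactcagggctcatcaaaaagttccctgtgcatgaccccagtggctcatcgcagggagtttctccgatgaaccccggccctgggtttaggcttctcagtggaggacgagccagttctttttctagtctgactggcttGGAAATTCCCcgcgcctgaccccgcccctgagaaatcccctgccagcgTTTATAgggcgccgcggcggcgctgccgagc
Tnfaip3: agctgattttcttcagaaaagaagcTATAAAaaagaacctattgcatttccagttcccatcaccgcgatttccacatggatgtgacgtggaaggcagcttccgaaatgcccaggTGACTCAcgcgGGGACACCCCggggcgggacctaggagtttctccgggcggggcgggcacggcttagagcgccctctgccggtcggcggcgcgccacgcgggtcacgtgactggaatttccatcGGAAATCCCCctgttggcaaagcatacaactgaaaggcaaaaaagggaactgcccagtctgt
With the first transcribed base counted as 0, a kappa-B match began at -44 in Il6, at -29 in Nfkbia and at -125 and -12 in Tnfaip3. The consensus was held by 3 of the 12 windows, against 4.51% of all windows. The AP-1 motif began at -12 in Il1a, at -249 in Il6 and at -136 in Tnfaip3, and was held by 5 of the 12 windows, against 7.81% of all. A match to TATAAA began at -32 in Il1a, at -31 in Il1b, at -29 in Tnf and at -225 in Tnfaip3, while those of Il18 at -175, Nfkbia at 19 and an Il1rn window at 14 lay on the opposite strand, and the motif was held by 7 of the 12 windows, against 13.6% of all. These are matches of letters and not measured binding. Il1rn and Tnfaip3 each gave more than a single window, and windows of Il1rn overlapped, so the 12 windows are not independent.

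Several features of the whole series touch these genes. The arrays had been scaled to a common mean, with median signals of 77.2 to 89.0 in the co-culture group and 74.8 to 85.5 in the control group, and pairs of arrays correlated at 0.96 to 0.98. Although all samples are labelled as MSCs and the sort removed CD45+ cells, macrophage transcripts were bright in both groups: 18 of 23 markers averaged at least 1000, and the macrophage colony-stimulating factor receptor Csf1r averaged 31978 in co-cultures and 31361 in controls. Of 22 stromal markers 10 averaged at least 1000, and the sort marker Pdgfra averaged 725 in co-cultures and 789.8 in controls. The brightest stromal marker, Vim, averaged 31270 in co-cultures and 30100 in controls, a large part of the stromal sum given next. The summed signal of the macrophage markers ranged over 343370 to 448676 in co-cultures and 322134 to 447994 in controls, and that of the stromal markers over 78836 to 102406 in co-cultures and 81723 to 112977 in controls. Neutrophil markers were low, 10 of 15 averaging under 50, with sums of 1645 to 3499 in co-cultures and 1452 to 3160 in controls. In a bulk culture, more cells of a type and more RNA per cell cannot be told apart. The sex-linked transcripts went against the label of male mice. The arrays numbered 3 and 4 in both groups carried Xist without the Y-linked Eif2s3y, whose signal there was at most 13.6. The other 4 co-cultures carried both (Xist 13136 to 16604 and Eif2s3y 1022 to 1331), and the other 4 controls carried Eif2s3y alone (2604 to 2845). Results are also given without the arrays numbered 3 and 4. Among the arrays then left, every co-culture carried both transcripts and every control Eif2s3y alone. Treatment and sex-linked pattern therefore cannot be told apart in that subset.

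The arrays fell into a pair of sets that the labels do not name. On the first principal component of the 45019 probe sets other than the 18 described here, which held 21.6% of the variance, co-cultures 2, 3 and 5 and controls 1, 3 and 5 lay on one side (set A) and co-cultures 1, 4 and 6 and controls 2, 4 and 6 on the other (set B). Each set thus held 3 co-cultures and 3 controls. The sets were read from the data, so no test between them is given, and values within them are a description added after the arrays were seen.

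Co-culture with HSCs left none of the 10 genes past the threshold. On log2(signal + 16), 6 of the brightest probe sets had a higher mean in co-cultures and 4 a lower one, with a median difference of 0.02 against 0.01 over all genes. In the fit across all probe sets, 0 of 18 had an adjusted p under 0.05 (limma, Benjamini-Hochberg), against 2 of 45037 probe sets on the array (0.00444%), and the smallest adjusted p of the 18 was 0.99998. At an unadjusted p under 0.05 there was 1 of the 18 probe sets, against 4.36% of all probe sets, and 0 of the 10 brightest, against 3.94% of all genes. The smallest two-sided exact permutation p over the 18 was 0.0693, where 6 arrays against 6 can reach 0.0022. Without the arrays numbered 3 and 4 the count stayed at 0 of 18, with a smallest adjusted p of 0.659.

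**Figure D1:**
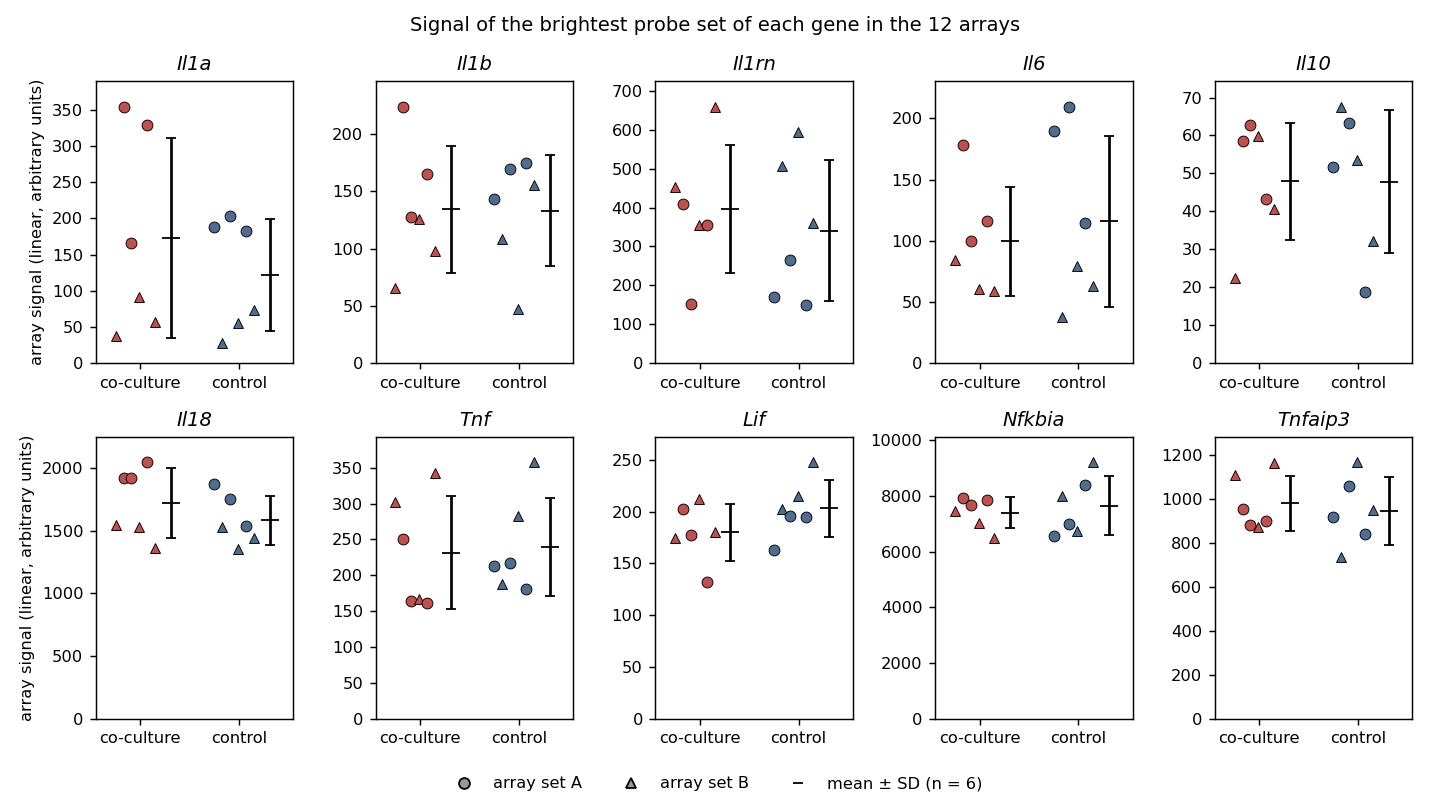
Array signal on a linear scale for the brightest probe set of each of the 10 genes, with the 6 co-cultures left of the 6 controls. Circles are arrays of set A and triangles arrays of set B, and bars give the mean ± SD of 6 arrays. The groups overlap in every panel, while circles lie above triangles in both groups for Il1a and Il6.

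Il1a, the gene of a cytokine that also acts as a danger signal when cells die, varied the most among the 10. Its probe set 1421473_at measured 37.2, 354, 166, 91.3, 329.6 and 57.2 in co-cultures 1 to 6, and 188.5, 27.6, 203, 55.2, 182 and 73.9 in controls 1 to 6. The highest array was 12.8-fold above the lowest, and the groups overlapped, with 2 co-cultures above every control. The difference, co-culture minus control, was 0.33 on the log2 scale (95% interval -0.88 to 1.54, exact permutation p = 0.595). Its SD within groups was 1.07 log2 units, at the 99.7th percentile of all probe sets.

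Il1b, the main secreted interleukin-1, ran from 65.4 over a median of 127 to 224 in co-cultures and from 47.0 over 149.6 to 175 in controls. The means were 134 ± 55.1 in co-cultures and 133 ± 48.4 in controls (SD, n = 6 each), and the log2 difference was 0.02 (-0.64 to 0.67, exact permutation p = 0.97). Its sign was not stable, as it was -0.17 without the arrays numbered 3 and 4. Il18 (1417932_at) was at 1361 to 2049 in co-cultures (median 1736) and 1356 to 1872 in controls (median 1538). Although 3 co-cultures lay above every control, the log2 difference of 0.11 kept within an interval of -0.16 to 0.39 (exact permutation p = 0.336).

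Il1rn, which encodes the receptor antagonist that opposes both interleukin-1 forms, was read by 3 probe sets. The brightest, 1451798_at, measured 452, 408, 152.5, 356, 355 and 659.7 in co-cultures 1 to 6, and 171, 506, 265, 594, 150.3 and 360.5 in controls 1 to 6. High and low arrays occurred in both groups. The log2 differences of the 3 probe sets were 0.26, 0.06 and 0.25, with intervals that reached from -0.83 to 1.08 between them and exact permutation p-values of 0.507 to 0.896. Without the arrays numbered 3 and 4 that of the brightest was 0.76 (SE 0.38, limma adjusted p = 0.776).

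Il6, the cytokine through which stroma and macrophages drive STAT3, measured (probe set 1450297_at) 84.3, 178, 99.4, 60.5, 116 and 58.7 in co-cultures 1 to 6, and 189, 38.0, 209.6, 79.6, 115 and 63.1 in controls 1 to 6. The groups overlapped, with 0 co-cultures outside the range of the controls. The log2 difference was -0.09 (-0.86 to 0.68, exact permutation p = 0.816), and it was 0.19 without the arrays numbered 3 and 4. Lif, which shares the gp130 receptor chain, had 2 probe sets, both with a lower mean in co-cultures. The brighter, 1421207_at, ran from 132 over 179 to 213 in co-cultures and from 163 over 199 to 248 in controls, a log2 difference of -0.17 (-0.44 to 0.10, exact permutation p = 0.186). The dim one, 1450160_at, measured 4.70, 26.3, 2.20, 29.6, 48.1 and 4.80 in co-cultures 1 to 6, and 51.1, 75.2, 16.5, 20.6, 41.7 and 46.8 in controls 1 to 6. With 3 co-cultures below every control, it was the single probe set of the 18 with an unadjusted p under 0.05: the log2 difference was -0.79 (-1.55 to -0.03, limma p = 0.0418, adjusted p = 0.99998, exact permutation p = 0.0693). The size of that difference rests on the constant added to low signals, being -1.58 with 1 and -0.35 with 64 in place of 16.

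Il10, the anti-inflammatory member, was dim, at 22.5 to 62.8 in co-cultures (median 50.95) and 18.8 to 67.6 in controls (median 52.65), and its log2 difference was 0.02 (-0.49 to 0.54, exact permutation p = 0.948). Tnf (1419607_at) ran from 162 over 208.5 to 342 in co-cultures and from 180.4 over 215 to 358 in controls. In 3 co-cultures it lay below every control, yet co-cultures 1 and 6 were among the 3 highest arrays, and the log2 difference was -0.07 (-0.55 to 0.41, exact permutation p = 0.762). It was 0.16 without the arrays numbered 3 and 4.

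The feedback genes gave brighter signals. Nfkbia, read by 5 probe sets, was at 6477 to 7921 in co-cultures (median 7550) and 6573 to 9206 in controls (median 7476) on the brightest, a log2 difference of -0.04 (-0.27 to 0.19, exact permutation p = 0.669). The other probe sets of Nfkbia gave -0.12 to 0.05. Tnfaip3 was at 869 to 1162 in co-cultures (median 925) and 732 to 1165 in controls (median 931.5), a log2 difference of 0.06 (-0.22 to 0.33, exact permutation p = 0.63). Its second, dim probe set gave -0.17. For these genes and Il18 the intervals were narrow, whereas that of Il1a spanned over 2 log2 units, so the arrays bound a change of Nfkbia far more closely than one of Il1a.

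**Figure D2:**
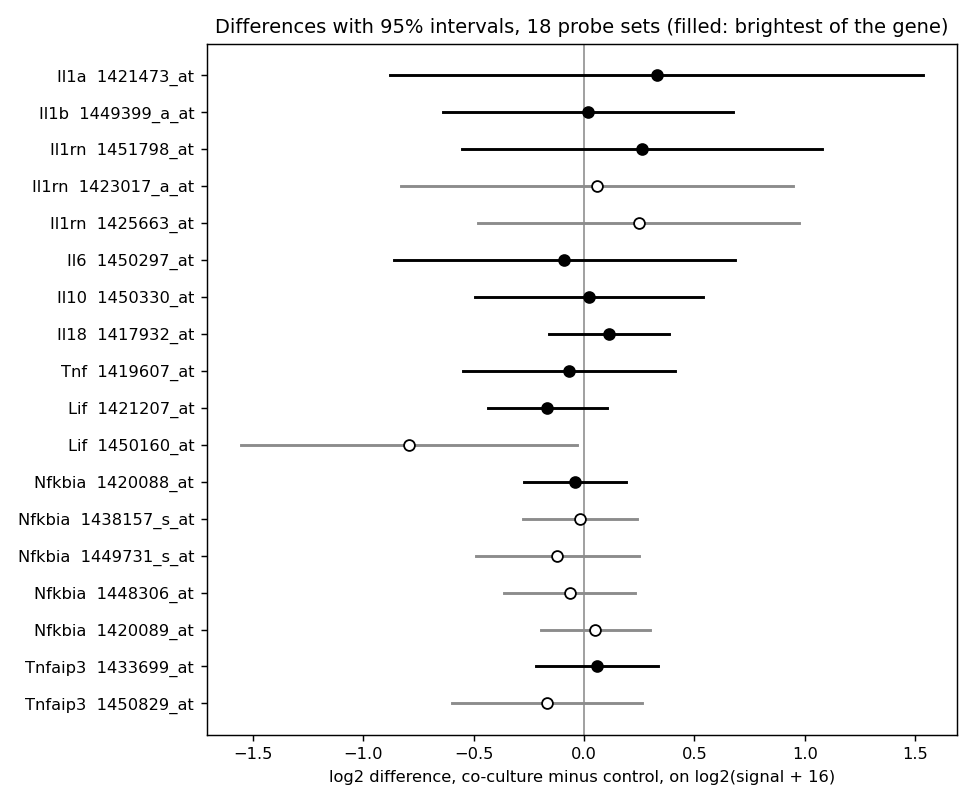
Log2 difference, co-culture minus control, on log2(signal + 16) for the 18 probe sets, with 95% intervals from limma; filled points are the brightest probe set of a gene and open points its other probe sets. Only the interval of the dim Lif probe set leaves out 0, and those of Il1a and Il1rn are the widest among the brightest.

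The 10 genes differed in how much cultures of the same treatment varied. The SD within groups was 0.72 log2 units for Il1rn, 0.68 for Il6 and 0.57 for Il1b on the brightest probe sets, against a median of 0.33 over all probe sets, which placed them at the 95.9th, 93.8th and 84.8th percentiles. All 3 probe sets of Il1rn lay at or above the 90.9th percentile. At the other end stood the brightest probe sets of Nfkbia (0.16, 15.0th percentile), Lif (0.20, 24.5th), Il18 (0.21, 25.6th) and Tnfaip3 (0.21, 25.9th). Dim signals scatter more on this scale, but among probe sets with a mean signal of at least 100, Il1a was still at the 99.5th percentile, Il1rn at the 97.8th, Il6 at the 97.3rd and Il1b at the 95.8th. In the same comparison Tnf was at the 89.4th percentile, Tnfaip3 at the 49.0th, Il18 at the 48.5th and Lif at the 46.7th, so that the spread of these last 3 was near the middle for bright probe sets, and the 5 probe sets of Nfkbia ran from the 28.8th to the 76.4th. The dim probe set of Lif, with an SD of 0.67, was at the 93.2nd percentile of all probe sets.

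**Figure D3:**
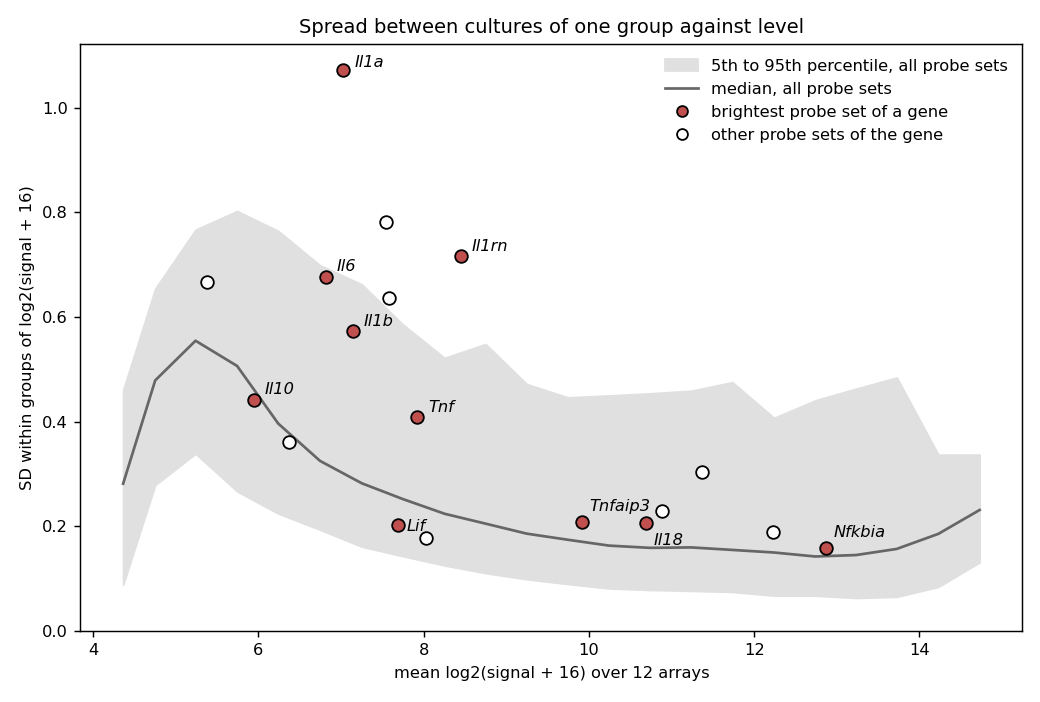
SD within groups of log2(signal + 16) against the mean log2(signal + 16) over 12 arrays; filled points are the brightest probe sets of the 10 genes, open points their other probe sets, the line is the median of all probe sets in bins of level and the band their 5th to 95th percentile. Il1a, at 1.07, and the Il1rn probe sets lie above the band, and Nfkbia, at 0.16, lies near the median line.

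Much of that spread ran with the array sets. Il1a was at 166 to 354 in set A and at 27.6 to 91.3 in set B, with no overlap, and Il6 was at 99.4 to 209.6 in set A and at 38.0 to 84.3 in set B, again with no overlap. Thus 2 of the 10 genes separated the sets, against 8.81% of all genes, a count too small to set the 10 apart. Most arrays of set A also had more Il18 than any of set B (5 of 6, with ranges of 1542 to 2049 in set A and 1356 to 1547 in set B) and more Il1b (4 of 6, with 127 to 224 in set A and 47.0 to 155 in set B). The antagonist ran the other way. Il1rn was at 150.3 to 408 in set A and at 356 to 659.7 in set B on the brightest probe set, 4 of 6 arrays of set B exceeding all of set A, and 5 of 6 on each of its other probe sets. Tnf was likewise above all of set A in 4 of 6 arrays of set B, with 162 to 250.3 in set A and 167 to 358 in set B. The overlap of Il1rn came from co-culture 2 of set A, at 408, which lay within the range of set B. For Il1a and Il6 the lack of overlap over all arrays means that the sets also separate within co-cultures and within controls.

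Within the sets the treatment differences were read as a description only. The log2 difference of Il1a was 0.46 in set A and 0.19 in set B, that of Il6 -0.34 in set A and 0.16 in set B, and that of Il1rn 0.53 in set A and -0.01 in set B, each from 3 arrays against 3, where the smallest two-sided exact p is 0.1. With the side of the first component as a term, a fit chosen after the arrays were seen, the standard error of the Il1a difference was 0.24 against 0.56 without it, and the smallest adjusted p over the 18 probe sets was 0.951 (limma). Some cell type markers also differed between the sets, and not all one way. Of 23 macrophage markers 3 were higher in set B without overlap and 0 in set A. Over all genes the share was 8.81% in either direction, so this count is too small to set the macrophage markers apart. The macrophage adhesion receptor Adgre1 was at 8833 to 12218 in set A and at 13941 to 16686 in set B, the integrin Itgam at 269 to 496 in set A and at 760.0 to 1746 in set B, and the scavenger receptor Msr1 at 3280 to 4662 in set A and at 5300 to 8977 in set B. Other macrophage markers leaned to set A, such as Csf1r at 30954 to 39489 in set A and 22598 to 31022 in set B, and their sum was 371436 to 448676 in set A and 322134 to 388296 in set B. Also leaning to set A were the summed stromal markers at 88950.5 to 112977 in set A and at 78836 to 94862 in set B. That sum rests mostly on its brightest members, of which Col1a2 and Fn1 leaned to set A. The brightest, Vim, leaned to set B, at 25959 to 30523 in set A and 28409 to 36173 in set B. Of the 22 stromal markers 0 separated the sets without overlap in either direction. The part of all these markers in the cytokine signals was not tested.

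**Figure D4:**
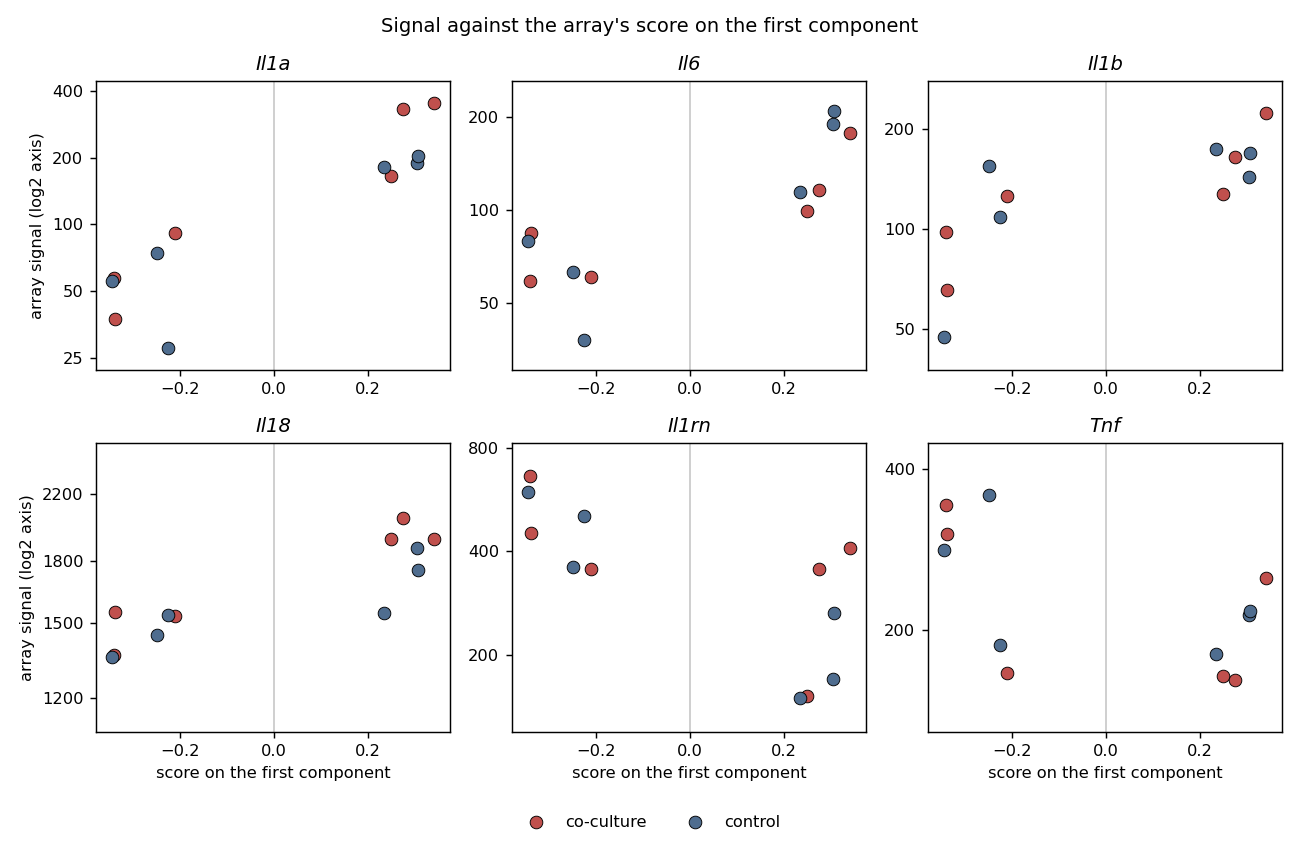
Array signal on a log2 axis against the score of the array on the first principal component, for 6 of the genes in 6 co-cultures and 6 controls; arrays right of 0 form set A and arrays left of it set B. Il1a and Il6 are high right of 0 in both groups, Il18 and Il1b mostly so, and Il1rn is mostly high left of it.

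Co-variation between the genes was examined over all 45 pairs of brightest probe sets. Over the 12 arrays 3 pairs passed an adjusted p of 0.05, those of Il1a with Il6, Il1b and Il18, all positive (permutation test with 100000 resamples, smallest adjusted p = 0.0394). Because the arrays form separate sets, no pooled coefficient is given. Inside sets A and B, of 6 arrays each, Pearson's r of Il1a was 0.17 and 0.28 with Il6, 0.73 and 0.38 with Il1b, and 0.54 and -0.26 with Il18, and 0 of the 90 coefficients passed adjustment (smallest adjusted exact permutation p = 0.25, with 3 at an unadjusted p under 0.05). The count over 12 arrays was also 0 without the arrays numbered 3 and 4. The sign of r was the same in both sets for 21 of the 45 pairs.

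The coefficient with the smallest p inside a set was that of the agonist with its antagonist. In set A, Il1a and Il1rn had r = 0.94 and rho = 0.94 (exact permutation p = 0.0028 and 0.0167, adjusted p = 0.25 and 0.84 over 90, n = 6), and r = 0.83 without the 2 arrays farthest from the median of Il1a. In set B the sign was the other, with r = -0.45 and rho = -0.49 (exact permutation p = 0.372 and 0.356, n = 6). Il6 and the A20 gene Tnfaip3 were the pair with the most alike coefficients, r = 0.81 in set A and in set B (exact permutation p = 0.0264 and 0.0486, adjusted p = 0.81 for each), with rho = 0.89 in set A and 0.54 in set B. Without the 2 arrays farthest in Il6 r was 0.77 in set A and 0.45 in set B. Tnf and Tnfaip3 had r = 0.61 in set A and 0.73 in set B, and that in set B was -0.64 without the 2 farthest arrays. Nfkbia and Tnfaip3 were the only pair with r under -0.5 in both sets, at -0.56 in set A and -0.51 in set B (exact permutation p = 0.253 and 0.318). Without the 2 arrays farthest in Nfkbia r was -0.52 in set A and -0.69 in set B. Each coefficient given here without 2 arrays rests on 4 arrays, too few to judge how stable r is.

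Against the mean log2 level of the macrophage, pan-leukocyte and stromal marker lists, 30 relations were examined, and 1 passed over the 12 arrays, that of Il1rn with the stromal list, which was negative (permutation adjusted p = 0.0051). Within the sets r was -0.84 in set A (rho = -0.89, exact permutation p = 0.0167 and 0.0333) and -0.76 in set B (rho = -0.6, exact permutation p = 0.128 and 0.242), and 0 of 60 passed (smallest adjusted p = 0.25). The 3 largest coefficients within a set did not recur at that size in the other. Il10 and the pan-leukocyte list had r = -0.91 in set B and -0.44 in set A (exact permutation p = 0.0125 and 0.428), Il1a and the stromal list -0.90 in set A and 0.35 in set B (exact permutation p = 0.0153 and 0.442), and Tnf and the macrophage list 0.88 in set B and 0.32 in set A (exact permutation p = 0.0097 and 0.56).

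The genes whose pattern over the 12 arrays was most like that of a member were ranked by Pearson's r among 10180 genes with a mean signal of at least 100. As they were picked on these same arrays, high coefficients within the sets are favoured by that choice. For Il1a the first was Fem1c, with r = 0.99 in set A and 0.73 in set B. It was at 2356 to 2834 in set A and at 1470 to 1810 in set B, without overlap. For Il1rn it was Slc11a1, the phagosomal metal transporter Nramp1 (0.97 in set A and 0.71 in set B). For Il6 it was the mitochondrial membrane gene Stoml2 (0.95 and 0.68 in sets A and B), for Il18 the mitochondrial import gene Timm8b (0.90 and 0.82), and for Il1b the cholesterol exporter Abca1 (0.24 and 0.94). Tnfaip3 was best matched by the nuclear pore gene Ndc1 (0.94 and 0.96) and Nfkbia by the ubiquitin ligase gene Marchf1 (0.98 and 0.90), both with ranges that overlapped between the sets.

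The other genes of these pathways, 193 genes in 12 lists, gave the same picture for treatment. Of these 0 passed adjustment, 5 had a higher and 3 a lower mean at an unadjusted p under 0.05, against 3.94% of all genes in either direction, and 101 had a higher and 92 a lower mean, against 9687 higher and 8506 lower over all genes. The directions within single lists are counts with no test. Among 8 measured ligands and decoys of the interleukin-1 family 7 had a higher mean in co-cultures, with a median difference of 0.16, and 3 of the 8 averaged under 50. Il1f8 averaged 76.3 ± 35.3 in co-cultures and 45.1 ± 8.79 in controls (SD, n = 6 each, exact permutation p = 0.0368). The signalling adaptor Myd88 averaged 1891 ± 99.9 in co-cultures and 1720 ± 118 in controls, a log2 difference of 0.14 (SE 0.08). Its exact permutation p was 0.026, but its limma p was 0.119, so it is not among the genes counted above. Of the genes named here all but Il12b had an adjusted p of 0.99998 in limma.

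In the interleukin-6 family list 8 of 17 had a higher mean and 9 a lower one. Il11, another cytokine of that family, averaged 38.6 ± 19.5 in co-cultures and 18.7 ± 14.4 in controls (exact permutation p = 0.0563). The interleukin-10 receptor chain Il10rb was bright and alike, at 12442 ± 302 in co-cultures and 12125 ± 726 in controls. In the TNF list 17 of 23 had a lower mean, with a median difference of -0.07. The TNF convertase partner Rhbdf2 averaged 369.8 ± 88.7 in co-cultures and 472 ± 51.2 in controls (exact permutation p = 0.0325), and the convertase inhibitor Timp3 775 ± 258 in co-cultures and 1204 ± 502 in controls (exact permutation p = 0.0671). The TNF receptor Tnfrsf1a differed by 0.01 log2 units (SE 0.08). Of 22 NF-kB inhibitors 9 had a higher mean and 13 a lower one, and the NF-kB subunit Rela differed by 0.09 (SE 0.08).

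The smallest p in the lists was that of Il12b, the shared p40 chain of interleukins 12 and 23. It was dim, at 31.0 to 46.4 in co-cultures and 0.80 to 33.3 in controls, with means of 40.2 ± 5.83 in co-cultures and 14.7 ± 12.0 in controls, and the log2 difference was 0.96 (SE 0.23, limma adjusted p = 0.692, exact permutation p = 0.0043). The size of the difference rests on the added constant, being 1.98 with 1 and 0.42 with 64, and whether signals this low lay above background is not known. Its partner for interleukin-23, Il23a, averaged 15.7 ± 12.0 in co-cultures and 6.4 ± 5.13 in controls (exact permutation p = 0.102).

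**Figure D5:**
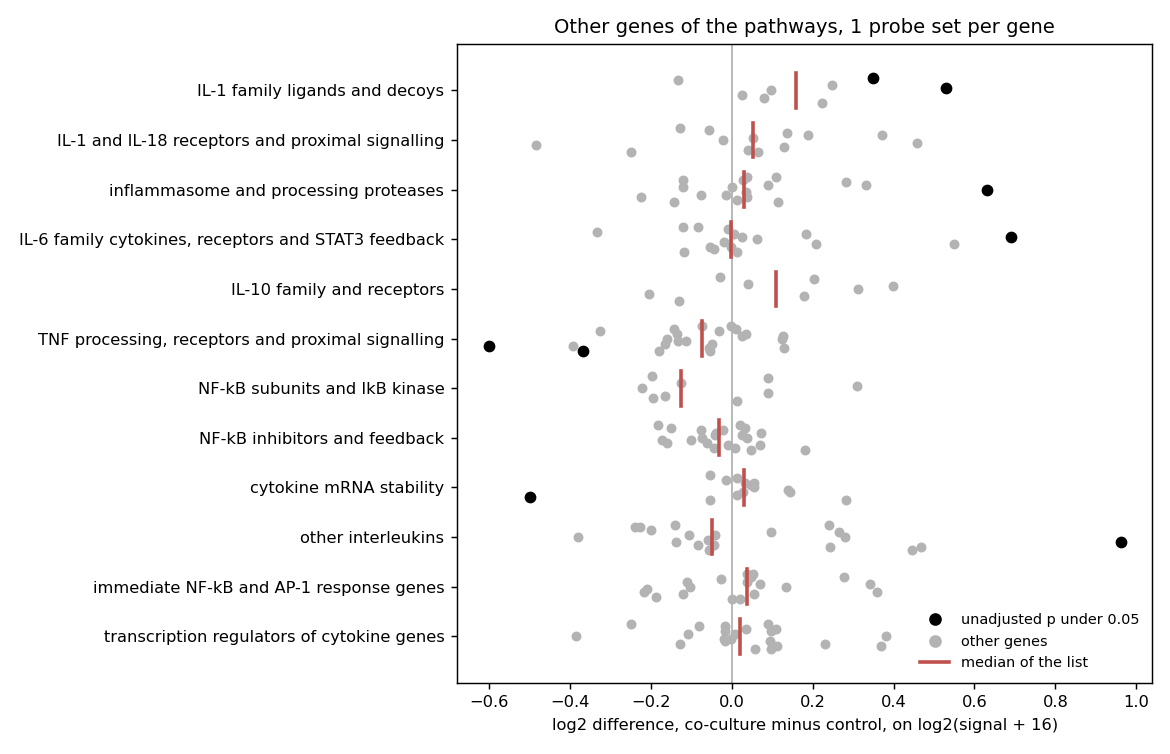
Log2 difference, co-culture minus control, on log2(signal + 16) for the other genes of 12 pathway lists, with 1 point per gene and a red bar at the median of each list; black points have an unadjusted p under 0.05 in limma. Medians lie close to 0, and 8 of the 193 genes are black, with Il12b farthest to the right at 0.96.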

How the data were processed

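RNA of 12 cultures was hybridised to Affymetrix Mouse Genome 430 2.0 arrays. The authors scanned them and used the GeneChip Operating Software. The deposited values are intensity signals, 1 per probe set, on a linear scale. The summary method, scaling target and genome build were not given in the sources used here. The arrays share a trimmed mean of 496.6 to 497.3, while their quantiles differ. All columns were mapped to a sample by its label.

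Of 45037 probe sets, 34945 carry a single symbol, 932 several and 9160 none here. The brightest probe set stands for a gene. Signals were taken as log2(signal + 16) and fitted with limma 3.58.1 in R 4.3.3, unpaired as in the methods of the study. P-values were adjusted by Benjamini-Hochberg across the whole table, with a threshold of 0.05. The fit was tested on simulated data. Exact permutation tests ran over all 924 arrangements, two-sided, and over all 720 for correlations within sets, and 100000 resamples with scipy 1.17.1 otherwise. Alternatives covered the constant, scaling, a filter at a mean signal of 50, the replicate block, limma options, the methods' t-test with equal variances, the summary of probe sets and left-out arrays. The term for the side of the first component and the values within sets were added after seeing the data. The genes and lists were chosen with earlier results of these data known. All members are named, with, in each list, up to 4 genes of smallest p and up to 3 brightest, of which some are given in the text. Sex-linked genes and genes that separate the sets were named after their values were seen. RefSeq tables on GRCm38.p6 supplied promoters, and 34741 probe sets were matched to its gene table by gene ID for names, with 0 symbols changed. Proteins were not used here.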

Additional observations from a re-analysis of the deposited data

How the results depend on the processing

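Under 25 alternative settings 0 of the 18 probe sets and 0 of the 10 genes passed the threshold (smallest adjusted p = 0.659), and 222 of 249 values of single genes kept their sign. The 27 that did not belonged to differences near 0. With median centring the log2 difference was -0.023 for Il1b and -0.018 for Il10, and with quantile normalization -0.0095 for Il1b and -0.053 for Il10. Over the mean of its probe sets Tnfaip3 had -0.055. Without the arrays numbered 3 and 4 Il1b had -0.17, Il6 0.19 and Tnf 0.16. Leaving out each array in turn gave -0.21 to 0.18 for Il1b, -0.31 to 0.10 for Il6, -0.14 to 0.16 for Il10, -0.19 to 0.047 for Tnf, -0.081 to 0.016 for Nfkbia and -0.0099 to 0.12 for Tnfaip3, and with no change of sign 0.05 to 0.62 for Il1a, 0.075 to 0.50 for Il1rn, 0.060 to 0.18 for Il18 and -0.22 to -0.088 for Lif. The 3 co-varying pairs became 0 without the arrays numbered 3 and 4, with log2(signal + 1) (smallest adjusted p = 0.0531), with quantile normalization (0.0514), without the 2 farthest arrays and within the sets of 6 arrays, and stayed 3 on deviations from group means. The causes were not tested.

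Over all probe sets, calls numbered 2 in the main setting and 0 to 4 when single arrays were left out. They numbered 8 without the arrays numbered 3 and 4, where treatment and sex-linked pattern cannot be told apart. The labels do not say that the replicate numbers pair the samples. Same-numbered arrays deviated together at r of -0.16 to 0.15, over 0.1 for 4 of 6 numbers. Those 4 numbers had both arrays in the same array set, while numbers 1 and 2 (r of -0.16 and -0.13) had one in each. This check therefore cannot tell pairing from the sets. The arrays numbered 3 and 4 also shared their sex-linked pattern across groups. The fits stayed unpaired, as in the methods of the study. With the replicate block as a fixed term 0 of the 18 probe sets were called, with the Il1a difference at 0.33. Arrays have no depth, and 6 a group limit the precision. The table gives no detection calls, so whether Il10, Il12b and the dim Lif probe set lay above background is not known, and a bright or dim signal of a probe set is no measure of RNA amount between genes.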

Other observations

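Among the 193 further pathway genes, 25 separated array sets A and B without overlap, against 8.81% of all genes, 16 of them higher in set A and 9 higher in set B. The STAT3 feedback gene Socs3 was at 1025 to 1509 in set A and at 503 to 833 in set B. The receptor genes Il6st (1185 to 1636 in set A, 844 to 1105 in set B) and Osmr (1320 to 2433 in set A, 527.9 to 1311 in set B) also lay on the same side as Il6. These were the only 3 of the 17 measured genes of the interleukin-6 family list that separated the sets. The inflammasome sensor Nlrp3 was at 360.1 to 464 in set A and at 259 to 348 in set B, whereas the protease Casp1, which activates interleukin-1β and interleukin-18, was at 2268 to 3234 in set A and at 3832 to 4259 in set B.

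Regulators of cytokine mRNA and transcription were among the genes that separated the sets. The RNA-binding protein gene Hnrnpd was at 8455 to 13404 in set A and at 2986 to 3575 in set B, and Zfp36l1, whose product promotes decay of such mRNAs, at 5857 to 7368 in set A and at 3305 to 4812 in set B. The transcription factor Atf3 ran the other way, at 1904 to 3329 in set A and at 3847 to 7430 in set B. Maf, at 19743 to 23381 in set A and at 13465 to 16736 in set B, had a log2 difference between co-cultures and controls of -0.02 (SE 0.17). Each set held 3 co-cultures and 3 controls, and the source of the sets is not given in the labels.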
